A study of Canis lupus familiaris with 25 samples.

Results

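The genes described here encode secreted proteins of apocrine epithelium and the proteins that carry polymeric immunoglobulins across it. They were taken by name from the deposited table and are 7 of its 24532 genes: PIP, LOC102153414, PIGR, LTF, JCHAIN, LCN2 and WFDC2. They were selected on their measured levels in these tumors, several being far lower in HGA than in AGASAC, so their levels across the tumor types are given below as a description, without a test. The close likeness of LOC102153414 to PIP was known as well, and is also given as a description. The members are tested for metastases against primary tumors of the same dogs, for sex and for the other relations within AGASAC. These are measures other than the contrast of HGA with AGASAC. That contrast is tested only for genes that are not members. Their lists were chosen with earlier results of these data known, so those p values are not independent of the choice.

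PIP, the prolactin-inducible protein, is a small protein secreted by apocrine glands of the skin, breast and salivary tissue, and is used as a marker of apocrine differentiation. PIGR, the polymeric immunoglobulin receptor, sits on the basal side of glandular epithelium, binds polymeric IgA and IgM through the joining chain encoded by JCHAIN, carries them through the cell and releases them into the secretion. JCHAIN itself is made by plasma cells. LTF (lactoferrin) and LCN2 (lipocalin 2) withhold iron from bacteria, LTF directly and LCN2 by binding bacterial siderophores, and both are made by gland epithelium as well as by neutrophil precursors. WFDC2 is a secreted whey acidic protein of many glandular epithelia.

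The samples were 25 formalin-fixed, paraffin-embedded tumors of privately owned dogs of several breeds, 8 to 14 years old, from which tissue around the tumor had been removed, sequenced with QuantSeq 3′, which yields reads near the 3′ end of a transcript. There were 10 hepatoid gland adenomas (HGA), a benign tumor of the perianal glands, 11 primary tumors of the anal sac glands, which are malignant (apocrine gland anal sac adenocarcinomas, AGASAC), and 4 metastases in the sublumbal lymph nodes of the dogs of AGASAC 1 to 4. The HGA came from 5 female dogs, 2 intact and 3 neutered, and 5 male dogs, 4 intact and 1 neutered. The primary AGASAC came from 5 female dogs, 2 intact and 3 neutered, and 6 male dogs, all neutered, so that neuter status differed between the tumor types. The metastases came from 2 female and 2 male dogs, 3 of them neutered. Each tumor is a single sample of whole tumor tissue, and in such bulk samples fewer cells of a type and less RNA per cell cannot be told apart.

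The sum of gene counts was 1562347 to 6389555 in HGA, 2581453 to 4218340 in primary AGASAC and 2857541 to 3289546 in the metastases. Levels of single samples are given as CPM, the usual library-scaled counts, with TMM factors over all 25 samples. Where a gene had 0 counts, the true level may reach 3 counts, or 0.470 to 1.92 CPM depending on the sample, and this limit and the counting intervals below cover counting error only. The gland epithelium markers KRT7, KRT8, KRT18, KRT19 and EPCAM summed to 3556 to 6221 CPM in primary AGASAC, 3458 to 5982 CPM in the metastases and 409 to 731 CPM in HGA. The basal and sebaceous markers KRT5, KRT14, KRT15, KRT79, TP63 and DSG3 summed to 4604 to 15280.4 CPM in HGA and to at most 33.3 CPM in any AGASAC sample.

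PIP was among the abundant transcripts of every AGASAC and close to absent from every HGA. In the primary AGASAC it lay between 887 CPM (tumor 8) and 5916 CPM (tumor 9), with a median of 2948 CPM and a mean of 3409 ± 1678 CPM (SD, n = 11). In the metastases PIP was 1585, 1792, 5238 and 2269 CPM in dogs 1 to 4. In HGA, 7 of 10 tumors had 0 counts of PIP, and HGA 3, 4 and 7 had 1, 2 and 4 counts. The lowest AGASAC thus lay above the highest HGA (1.23 CPM), in the primary tumors as in the metastases. Of 12070 genes tested 4.76% separated primary AGASAC from HGA without overlap in this direction, and 9.09% separated the metastases from HGA. With counts pooled over each group, PIP was 14087 times as high in primary AGASAC as in HGA, with a 95% counting interval of 6837 to 35038 that is set by the 7 counts in HGA. In the metastases the same ratio was 10813, with an interval of 5248 to 26893. The log2FC of HGA relative to primary AGASAC, with AGASAC as baseline throughout, was −13.46 (SE 0.67).

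**Figure D1:**
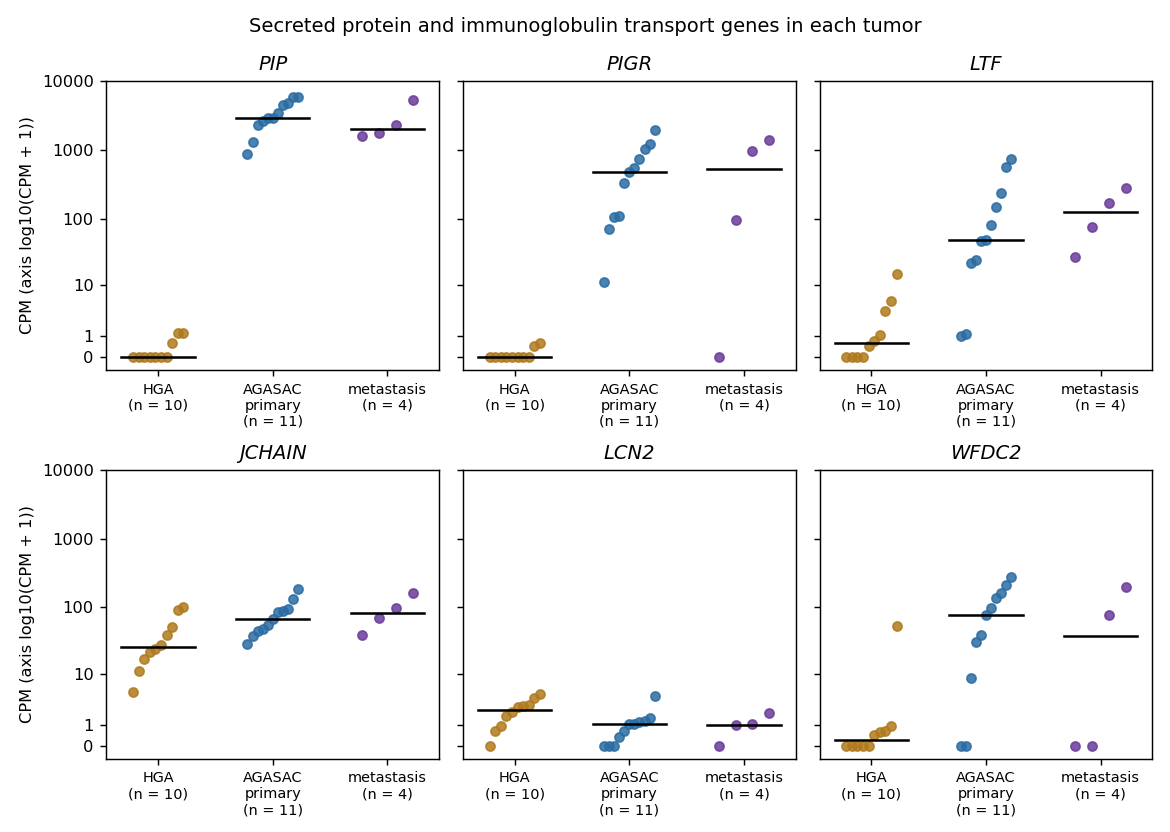
Level of 6 genes in each tumor, in CPM on a log10(CPM + 1) axis, for HGA (n = 10), primary AGASAC (n = 11) and metastases (n = 4), with each point a tumor. PIP separates every AGASAC sample from every HGA, whereas JCHAIN and LCN2 overlap between the tumor types, and the single HGA with a high WFDC2 value is HGA 4.

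The counts of the row named LOC102153414 were almost equal to those of PIP. Its count was at or below that of PIP in 25 of 25 samples and was 97.6% to 99.7% of it (median 99.0%) in the 15 AGASAC samples, where the counts differed by 15 to 396. In HGA 3, 4 and 7 both rows held the same 1, 2 and 4 counts. No other gene of the table came within 5% of the PIP count in all 15 AGASAC samples. The authors' methods state that reads mapping to several places were distributed over them, and the table cannot show how a read shared by these rows was counted, so both rows are treated as uncertain and as a single measurement. Adding them into a single gene left the log2FC at −13.52. The annotation table used for gene names held the other 6 genes but no entry for LOC102153414.

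**Figure D2:**
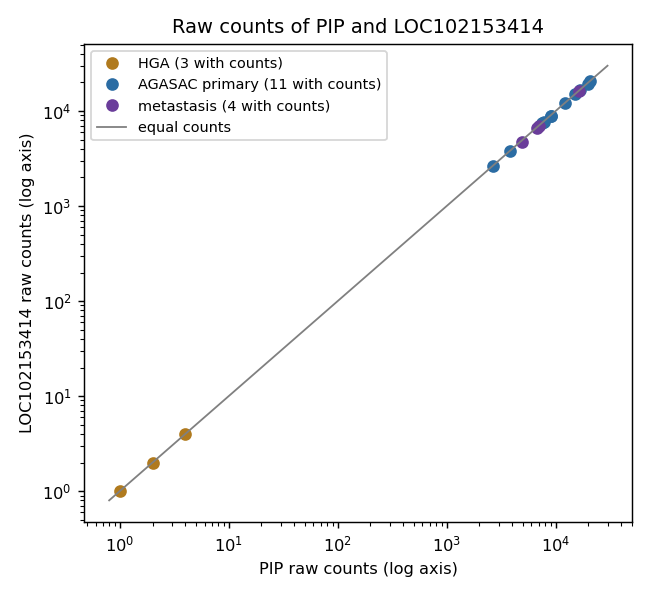
Raw counts of LOC102153414 against those of PIP, both on log axes, in the 18 samples with counts, with a grey line for equal counts. The 15 AGASAC samples and the 3 HGA lie on or just under the line, from 1 count to 20630 counts of PIP.

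PIGR, the receptor that carries immunoglobulins through the epithelium, was also nearly absent from HGA but varied far more than PIP among the AGASAC. HGA 3 and 10 had 1 count each and the other 8 HGA had 0. In primary AGASAC it ranged from 11.1 CPM in tumor 2, over a median of 487 CPM, to 1955 CPM in tumor 8, a 176-fold range, while the range of PIP was 6.67-fold. All 11 primary tumors lay above all HGA. The pooled ratio to HGA was 8347 (95% counting interval 2311 to 68922) and the log2FC was −12.35 (SE 1.04). The metastasis of dog 2 had 0 counts of PIGR, so the metastases overlapped with HGA, while those of dogs 1, 3 and 4 had 95.1, 956 and 1381 CPM.

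LTF differed strongly on average, but its groups overlapped. In HGA it was 0 to 15.2 CPM (median 0.588), and in primary AGASAC 1.01 to 742 CPM (median 48.9). AGASAC 8 and 9, at 1.01 and 1.15 CPM, were within the range of HGA, and tumors 5 and 11, at 742 and 573 CPM, were the highest. The 4 metastases, at 171, 285, 27.0 and 76.0 CPM, all lay above the highest HGA. The log2FC of LTF was −6.03 (SE 1.12). The neutrophil markers summed to 4.69 to 124 CPM in HGA and to 1.01 to 39.6 CPM in primary AGASAC, and MPO, ELANE, CAMP and MMP8 of that list had 0 counts in all 11 primary AGASAC. In the metastases the sum was 15.2 to 60.1 CPM (median 28.9, against 6.86 in primary AGASAC), and each of the 9 markers in the table had counts in at least 1 metastasis. The part of neutrophils in the LTF values was not tested.

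WFDC2 was high in most AGASAC and in a single HGA. It had 0 counts in AGASAC 1 and 2 and reached 282 CPM in AGASAC 5, with a median of 76.9 CPM. In HGA it was 52.9 CPM (86 counts) in HGA 4 and at most 0.904 CPM in the other 9. The log2FC was −4.24 (SE 1.17) with HGA 4 and −7.91 without it, so that this tumor made the difference smaller.

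JCHAIN, the plasma cell product that PIGR binds, was present in every tumor of both types. It ranged from 4.92 to 101 CPM in HGA (median 26.1) and from 29.2 to 186 CPM in primary AGASAC (median 67.5), with a log2FC of −0.99 (SE 0.42). The ranges overlapped widely, from 29.2 to 101 CPM. The plasma cell markers MZB1, TNFRSF17, POU2AF1, DERL3, IRF4, PRDM1, CD38 and FCRL5 summed to 3.16 to 37.5 CPM in HGA (median 10.9) and 9.05 to 48.2 CPM in primary AGASAC (median 20.1), so their ranges overlapped as well. A single one of them passed the filter on low counts, and it was not called. In the median HGA, 6 of these 8 markers had at most 3 counts, and the part of plasma cells in the difference of JCHAIN was not tested.

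LCN2 did not share the pattern. It was low in both tumor types, 0 to 4.69 CPM in HGA and 0 to 4.19 CPM in primary AGASAC, and its mean was 2.21 ± 1.47 CPM (SD, n = 10) against 1.03 ± 1.19 CPM (SD, n = 11), higher in HGA. LCN2 was removed by the filter on low counts, so that 6 of the 7 genes entered the fit.

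For reference, the quasi-likelihood test of edgeR, adjusted by Benjamini-Yekutieli, called 25.1% of the 12070 genes tested between HGA and primary AGASAC (adjusted p at most 0.05 and an absolute log2FC of at least 1), 12.6% higher and 12.5% lower in HGA. Among the members PIP, LOC102153414 and PIGR did not overlap between HGA and primary AGASAC, and PIP, LOC102153414 and LTF between HGA and metastases. RNA had been extracted in batches, and batches 5, 6 and 8 held at least 2 tumors of each type. Within these batches the log2FC was −13.82, −15.89 and −12.17 for PIP, −14.02, −14.27 and −10.77 for PIGR, and −2.20, −4.87 and −7.76 for LTF. JCHAIN was at −0.61, −1.84 and −2.67, and WFDC2 at −2.05 and −7.33 in batches 5 and 6. All were below 0. As the members were chosen on this contrast in these same tumors, their direction within batches is a description only.

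The genes that work together with these proteins were then counted from 7 lists with 124 genes, of which 101 were in the table and 63 passed the filter. Of the 63 genes tested, 28 (44.4%) were called by the same edgeR test, 12 higher and 16 lower in HGA. Over all 12070 genes tested 25.1% were called, 12.6% higher and 12.5% lower, which is the share to set beside each list below. The lists were chosen with earlier results of these data known, so their share of calls is a description only. The median log2FC over all genes tested was −0.03.

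Among the gland secreted proteins, 3 of 6 tested genes were lower in HGA and none was higher, with a median log2FC of −1.79. AGR2, an endoplasmic reticulum protein of mucus-secreting cells, fell by 5.72 (SE 0.54, edgeR adjusted p = 8.36e-08) on the log2 scale, from 60.0 ± 33.5 CPM in AGASAC (SD, n = 11) to 1.07 ± 1.23 CPM in HGA (SD, n = 10). AZGP1, a secreted lipid-mobilizing glycoprotein that binds PIP in seminal fluid, fell by 4.76 (SE 0.65, edgeR adjusted p = 2.1e-05). XDH, the xanthine dehydrogenase that takes part in milk fat secretion, fell by 2.69 (SE 0.65, edgeR adjusted p = 0.0145). CLU, MFGE8 and APOD were not called.

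Among the epithelial antimicrobial proteins, 1 of 5 tested genes was higher and 1 lower in HGA, with a median log2FC of 0.19. CBD103, a beta-defensin of dog skin, had 0 counts in all 11 primary AGASAC and 7.99 to 453 CPM in HGA (edgeR adjusted p = 9.69e-06). SLPI, a secreted protease inhibitor with whey acidic protein domains like those of WFDC2, fell by 4.46 (SE 1.24, edgeR adjusted p = 0.0472). It ranged from 40.2 to 7347 CPM in AGASAC and from 0 to 349 CPM in HGA, so that the groups overlapped. Lysozyme (LYZ) was not called, at 69.3 ± 57.4 CPM in AGASAC (SD, n = 11) and 50.0 ± 50.9 CPM in HGA (SD, n = 10).

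Of the transport machinery on which PIGR depends, 2 of 20 tested genes were higher and 2 lower in HGA, 16 were not called, and the median log2FC was −0.10. RAB11A, a GTPase of recycling endosomes, was 202 ± 73.4 CPM in HGA (SD, n = 10) and 167 ± 50.3 CPM in AGASAC (SD, n = 11), and MYO5B, the motor that moves these endosomes, 45.9 ± 21.5 and 26.3 ± 10.7 CPM; neither was called. RAB17, a GTPase of epithelial transcytosis, was at 21.5 ± 9.67 CPM in AGASAC (SD, n = 11) against at most 3 counts in any HGA (edgeR adjusted p = 1.05e-08). VAMP8, a SNARE of secretory granules, fell by 1.70 (SE 0.25, edgeR adjusted p = 5.4e-05). YES1, a kinase that acts in PIGR transcytosis, and RAB25 were higher in HGA, with log2FC of 1.32 (SE 0.31, edgeR adjusted p = 0.0108) and 1.17 (SE 0.31, edgeR adjusted p = 0.0361).

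Of the genes that recruit IgA plasma cells and keep them alive, 7 of 17 in the table were tested and 2 were lower in HGA, with a median log2FC of −0.36. TNFSF13, the survival factor APRIL, fell by 2.60 (SE 0.43, edgeR adjusted p = 0.000279), and was 9.49 to 73.9 CPM in AGASAC and 0 to 11.2 CPM in HGA. TGFB1, which directs switching to IgA, fell by 2.06 (SE 0.48, edgeR adjusted p = 0.0115). CXCL12 was not called.

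The transcription factors and receptors known to act on PIP or on apocrine and mammary secretion moved in both directions. Of 11 tested genes 6 were higher and 3 lower in HGA, with a median log2FC of 1.28. FOXA1 and PGR of this list were in the table but untested, so these numbers leave them out. In primary AGASAC FOXA1 was 2.67 to 56.2 CPM and PGR 0 to 9.48 CPM. In any HGA FOXA1 had at most 2 counts and PGR had 0. ESR1, the estrogen receptor alpha, was higher in HGA with a log2FC of 3.98 (SE 0.52, edgeR adjusted p = 1.18e-05), and was 84.0 to 249 CPM in the HGA, where PIP was nearly absent, and 0.287 to 28.1 CPM in primary AGASAC. RUNX1 was higher with a log2FC of 2.53 (SE 0.54, edgeR adjusted p = 0.00503). SPDEF, a factor of secretory cells, ran the other way, at 152 ± 61.8 CPM in AGASAC (SD, n = 11) against at most 1 count in any HGA (edgeR adjusted p = 4.09e-14). TFAP2B fell by 4.71 (SE 0.23, edgeR adjusted p = 1.55e-12) and GATA3 by 2.21 (SE 0.24, edgeR adjusted p = 7.21e-07), although GATA3 remained at 504 to 2047 CPM in HGA. PRLR, the prolactin receptor, was not called, at 271 ± 129 CPM in HGA (SD, n = 10) and 434 ± 325 CPM in AGASAC (SD, n = 11).

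Of the NF-kB and acute-phase genes, which accompany LCN2 induction, 5 were tested, 1 was higher and 2 were lower in HGA, with a median log2FC of −0.19. CP, the copper protein ceruloplasmin, fell by 7.76 (SE 0.94, edgeR adjusted p = 3.62e-06), from 161 ± 205 CPM in AGASAC (SD, n = 11) to 0.709 ± 0.945 CPM in HGA (SD, n = 10). SOCS3 fell by 1.26 (SE 0.35, edgeR adjusted p = 0.0434). IL17RA, a receptor chain upstream of NF-kB, was higher with a log2FC of 1.29 (SE 0.22, edgeR adjusted p = 0.000435).

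Of the iron handling genes and lipocalin receptors, 9 were tested, 2 were higher and 3 lower in HGA, with a median log2FC of 0.36. HMOX1 (heme oxygenase) and SLC40A1 (the iron exporter ferroportin) were higher, with log2FC of 3.97 (SE 0.55, edgeR adjusted p = 2.75e-05) and 2.78 (SE 0.29, edgeR adjusted p = 3.06e-07). SLC11A1, a metal transporter of phagocyte vesicles, fell by 4.34 (SE 0.59, edgeR adjusted p = 1.81e-05). SLC22A17, a receptor of LCN2, fell by 1.53 (SE 0.26, edgeR adjusted p = 0.000435), and FTH1 (ferritin heavy chain) by 1.37 (SE 0.24, edgeR adjusted p = 0.000592). In 3 lists, 1 gene each had at most 3 counts in every tumor of a type. With these genes set at the bound that 3 counts allow, the medians of all 7 lists were the same. A median could hardly move here, because CBD103, RAB17 and SPDEF were the most extreme of their lists and the other lists held no such gene.

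**Figure D3:**
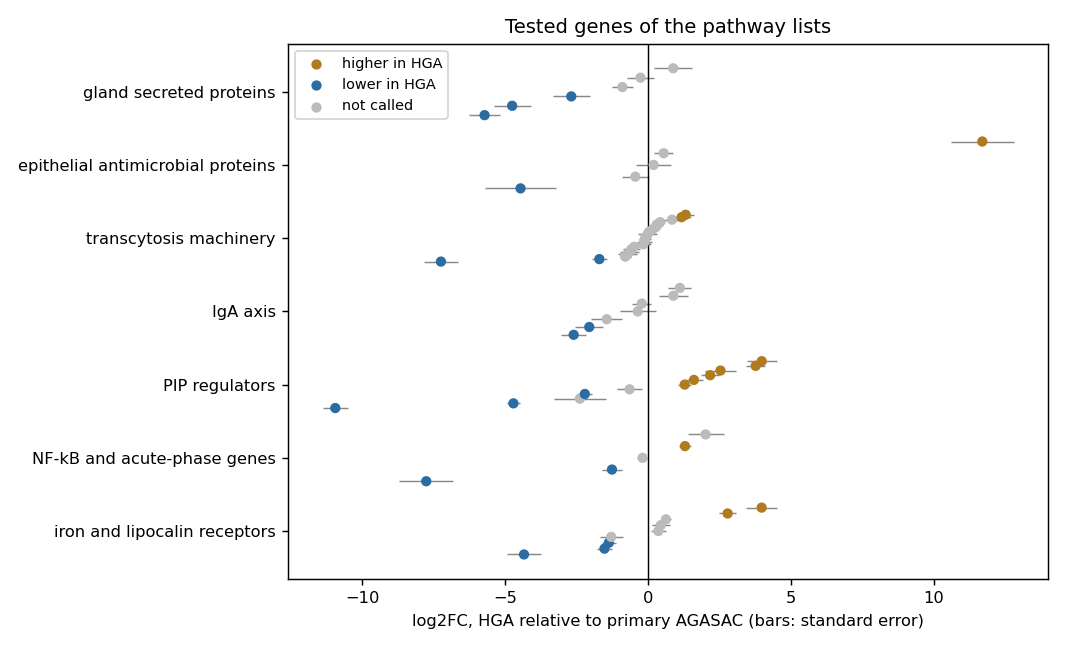
The log2FC of HGA relative to primary AGASAC, with standard errors as bars, for the tested genes of the 7 lists, colored by the call of edgeR's quasi-likelihood test. Of 63 genes 12 were called higher (brown), 16 lower (blue) and the rest were not called (grey), and the farthest points, CBD103 on the right and SPDEF on the left, are genes with 0 and at most 1 count in every tumor of the other type.

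Whether the levels differed between a metastasis and the primary tumor of the same dog was asked in dogs 1 to 4. Across 12629 genes the same edgeR test called 0 genes (0%), with 145 genes at an unadjusted p under 0.05, and DESeq2 called 5. None of the members and none of the 64 list genes tested was called. With dog as a replicate block edgeR called 1 gene, ACTA1, a skeletal muscle actin that is no member and is named here because it is the only call.

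PIP was 2341, 2942, 4498 and 3420 CPM in the primary tumors of dogs 1 to 4 and 1585, 1792, 5238 and 2269 CPM in their metastases. The order of the dogs was the same in both. On the log2(CPM + 1) scale the means of the dogs spanned 1.33, and the largest difference within a dog was 0.71. PIP was lower in 3 of 4 metastases and higher in dog 3, with a log2FC of metastasis relative to primary of −0.28 (SE 0.44, edgeR adjusted p = 1). That fit ignored that the tumors are paired by dog. With dog as a replicate block the log2FC of PIP was −0.42 (SE 0.20, edgeR unadjusted p = 0.0747), and PIP was not called. By the exact sign-flip permutation test over the 4 dogs, which cannot go below p = 0.125, p was 0.25.

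WFDC2 differed more between dogs than between the tumors of a dog. It had 0 counts in both tumors of dogs 1 and 2, and was 39.7 and 76.9 CPM in the primary tumor and metastasis of dog 3 and 136 and 199 CPM in those of dog 4. On the log2(CPM + 1) scale the means of the dogs spanned 7.37, and the largest difference within a dog was 0.93. With dog as a replicate block the log2FC was 0.73 (SE 0.25, edgeR unadjusted p = 0.0295, adjusted p = 1). PIGR also kept the order of the dogs, at 70.5, 11.1, 734 and 1213 CPM in the primary tumors and 95.1, 0, 956 and 1381 CPM in the metastases. Its means spanned 8.54 between dogs, and the largest difference within a dog was 3.60, in dog 2, where 34 counts faced 0. Its log2FC was 0.25 (SE 1.71) without the block and −0.25 (SE 0.65) with it, and both had an edgeR adjusted p of 1.

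JCHAIN varied between the tumors of dogs 2 and 4. It was 93.7, 47.7, 44.8 and 38.4 CPM in the primary tumors and 69.1, 163, 38.9 and 99.0 CPM in the metastases, higher in dogs 2 and 4 and lower in dogs 1 and 3. Its means spanned 1.06 between dogs, and the difference within a dog had a median of 0.89 and was largest, at 1.75, in dog 2, with a log2FC of 0.74 (SE 0.45, edgeR adjusted p = 1). The log2FC of JCHAIN with dog as a block was 0.63 (SE 0.40, edgeR unadjusted p = 0.158). LTF was 150, 237, 47.7 and 21.7 CPM in the primary tumors and 171, 285, 27.0 and 76.0 CPM in the metastases, with a log2FC of 0.31 (SE 0.82, edgeR adjusted p = 1). The log2FC of LTF with the block was 0.35 (SE 0.37, edgeR unadjusted p = 0.375). LCN2 stayed at 0 to 6 counts in all 8 samples.

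The metastases lay in lymph nodes, and markers of other cell types moved between the tumors of a dog. Lymph node stroma markers summed to 4.52, 8.17, 1.48 and 6.67 CPM in the primary tumors of dogs 1 to 4 and to 7.79, 9.02, 14.8 and 16.3 CPM in their metastases, higher in 4 of 4 dogs. Of these, the lymph node chemokine CCL19 was 0.654 to 1.67 CPM in the primary tumors and 2.27 to 8.36 CPM in the metastases. CCL21, the only gene of this list that was tested, was 0.301, 7.52, 0.593 and 5.00 CPM in the primary tumors of dogs 1 to 4. In their metastases CCL21 was 0.649, 4.24, 4.18 and 5.11 CPM, lower in dog 2. The sum of this list was 12.5 to 150 CPM in HGA (median 45.4, against 11.9 in the metastases), so it was not particular to lymph node samples. B cell markers summed to 46.4, 32.02, 22.2 and 33.4 CPM and to 52.9, 32.1, 37.95 and 38.02 CPM. The B cell genes MS4A1 and PAX5 had means of 1.61 and 0.383 CPM in the primary tumors against 4.16 and 2.45 CPM in the metastases, while BANK1 was 7.45 against 4.87 CPM. Neutrophil markers summed to 15.1, 6.86, 5.93 and 6.39 CPM in the primary tumors and to 15.2, 32.6, 25.1 and 60.1 CPM in the metastases. Their most abundant genes, S100A8 and S100A12, were 4.25 to 11.2 and 0 to 2.41 CPM in the primary tumors and 9.01 to 22.04 and 3.24 to 23.96 CPM in the metastases. S100A8 had a log2FC of 1.31 (SE 0.44, edgeR unadjusted p = 0.016, adjusted p = 1), and S100A12 was too low to be tested. None of the markers tested was called, and the part of these cells in the values of LTF and the other members was not tested. Plasma cell markers summed to 15.8 to 40.6 CPM in the metastases, the highest value being that of dog 2, where JCHAIN was highest too, and 24.2 CPM in the primary tumor of that dog. The part of plasma cells in the JCHAIN values was not tested.

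**Figure D4:**
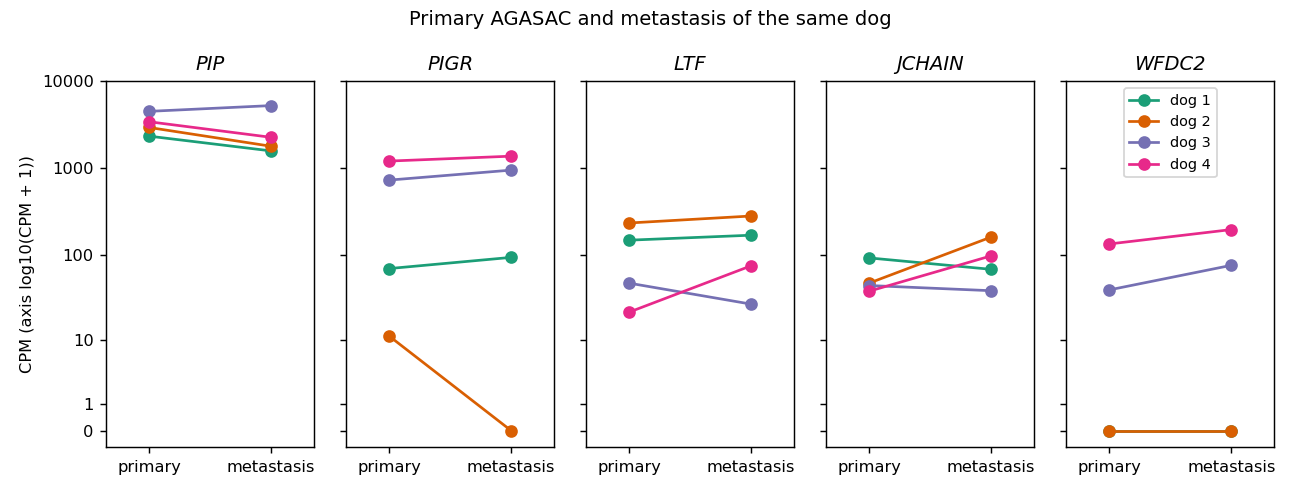
Level in the primary AGASAC and the metastasis of the same dog, in CPM on a log10(CPM + 1) axis, for 5 genes, with a line for each of the 4 dogs. Lines of PIP, WFDC2 and PIGR keep their order between the tumors and JCHAIN lines cross, and dogs 1 and 2 lie on top of each other at 0 for WFDC2.

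Between the sexes within primary AGASAC, PIP was the gene with the clearest separation among the members. It was 2341, 3420, 2606, 1322 and 887 CPM in the 5 female dogs (tumors 1, 4, 5, 6 and 8) and 2942, 4498, 5835, 5916, 2948 and 4780 CPM in the 6 male dogs (tumors 2, 3, 7, 9, 10 and 11). The tumors of 4 of 5 female dogs lay below those of all male dogs, and the mean was 2115 ± 1016 CPM (SD, n = 5) against 4486 ± 1319 CPM (SD, n = 6). The log2FC of female relative to male dogs was −1.09 (SE 0.37). Sex also went with extraction batch, as the male dogs were in batches 4, 5 and 8 and the female dogs in 6, 7 and 8. Only batch 8 held both sexes, with 2341 and 2606 CPM in tumors 1 and 5 (female) and 2942 CPM in tumor 2 (male). Outside batch 8 sex and batch cannot be told apart.

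The difference of PIP between the sexes did not pass the adjustment over all genes. For PIP, edgeR's quasi-likelihood test gave an unadjusted p of 0.0123 and an adjusted p of 1, and the exact permutation test of this single gene, 1 of 7 examined in this way, gave p = 0.0173 (two-sided). Across 12751 genes the same edgeR test called 1 (0.00784%), LOC102156855, which is no member and is named because it is the only call, and 608 genes had an unadjusted p under 0.05. All male dogs were neutered. Among neutered dogs alone the log2FC of PIP was −1.12 (SE 0.38, edgeR adjusted p = 1), with 1322 to 2606 CPM in the 3 neutered female dogs.

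The other members overlapped more widely between the sexes. Their exact permutation p lay between 0.212 for JCHAIN and 0.771 for LCN2, apart from LOC102153414, whose counts were almost those of PIP. JCHAIN was 101 ± 59.5 CPM in female (SD, n = 5) and 60.5 ± 23.8 CPM in male dogs (SD, n = 6). PIGR held both its lowest value among male dogs, 11.1 CPM, and its highest among female dogs, 1955 CPM. None of the 65 list genes tested was called.

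Within the 11 primary AGASAC the members were next compared with each other. Of 25 correlations of log2(CPM + 1) values computed as a family, none passed Benjamini-Hochberg adjustment apart from that of PIP with LOC102153414, whose nearly equal counts are described above. The strongest of the rest was negative, between PIGR and LTF. AGASAC 8 held the highest PIGR value and the lowest LTF value, and tumors 5 and 11, with the highest LTF, had 108 and 111 CPM of PIGR. Pearson's r was −0.69 (permutation p = 0.0172, adjusted p = 0.215) and Spearman's rho −0.79 (permutation p = 0.00559, adjusted p = 0.0699), and without the 2 tumors farthest from the median of PIGR r was −0.77. Neither passed the adjustment. The family included the pair of PIP with LOC102153414, whose outcome was known beforehand. The adjusted p values of PIGR with LTF are therefore smaller than they would be without that pair. The pairs of LOC102153414 with other members nearly repeat those of PIP.

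PIP and PIGR had r = −0.05 (permutation p = 0.875, adjusted p = 0.897) and rho = 0.19 (permutation p = 0.579, adjusted p = 0.884), and r was 0.54 without the 2 tumors farthest from the median of PIP. PIGR and WFDC2 had r = 0.61 (permutation p = 0.0468, adjusted p = 0.292) and rho = 0.38 (permutation p = 0.253, adjusted p = 0.605), and r was −0.21 without the 2 tumors farthest from the median of PIGR, so the relation rested on those. LTF with the sum of neutrophil markers had r = 0.61 (permutation p = 0.0446, adjusted p = 0.292) and rho = 0.49 (permutation p = 0.129, adjusted p = 0.464), and r was 0.085 without the 2 farthest tumors. JCHAIN with the sum of plasma cell markers had r = 0.55 (permutation p = 0.0824, adjusted p = 0.343) and rho = 0.53 (permutation p = 0.0998, adjusted p = 0.464), and r was 0.71 without the 2 farthest tumors. No extraction batch held more than 3 primary AGASAC, too few to compute these relations within batches.

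**Figure D5:**
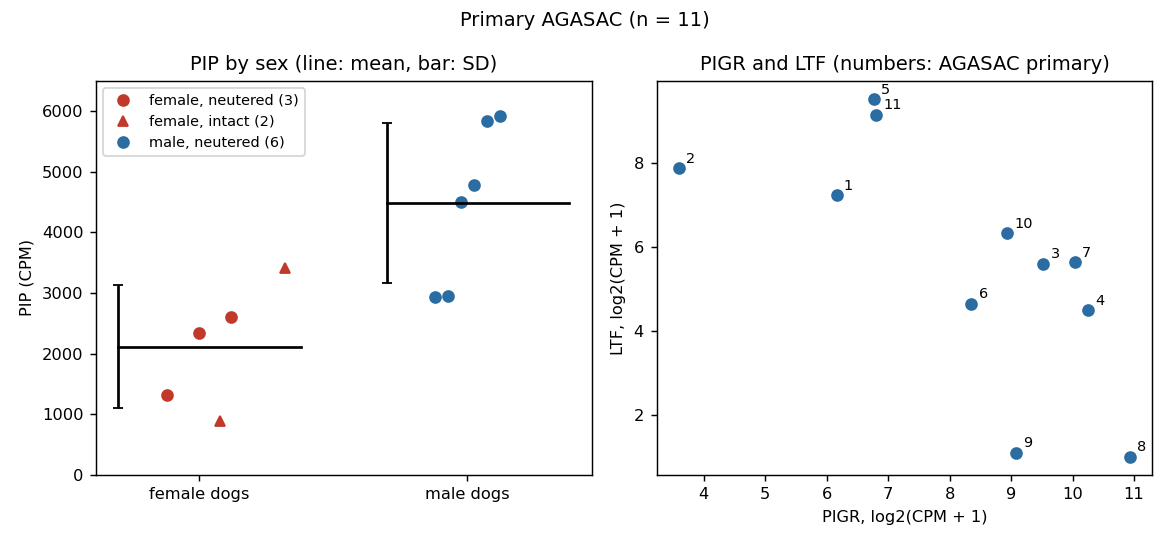
Left, PIP in CPM in the primary AGASAC of female (n = 5) and male dogs (n = 6), neutered dogs as circles and intact dogs as triangles, with the mean and SD. Right, LTF against PIGR, both log2(CPM + 1), with the tumor numbers, where tumor 8 lies at the highest PIGR and the lowest LTF.

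The genes whose pattern over the 11 primary AGASAC was most like that of a member were found among 9444 genes by Pearson's r of log2(CPM + 1), as a description. For PIP they were PFAS (r = 0.88), MSL2 (0.86) and RHBDD3 (0.86), for PIGR they were CCNJ (0.91), AMIGO3 (0.86) and PRDX6 (0.86), for LTF they were PRPS1 (0.95), PBDC1 (0.93) and GADD45GIP1 (0.92), and for JCHAIN they were LOC102153980 (0.91), ANXA3 (0.89) and CLIP1 (0.88). None of these genes stood in the lists above. With 11 tumors and this many genes, values of this size are the extreme of a large set.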

How the data were processed

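The libraries were made with QuantSeq 3′ from 25 FFPE tumors of dogs. The authors trimmed the reads (cutadapt), aligned them to CanFam3.1 (STAR), counted them per gene (featureCounts) in rounds with 3′ extensions of the annotation by up to 2 kb, and deposited raw counts without normalization. The deposited table also held, as a signal, counts that the authors normalized by size factors, and the authors' own log2 fold changes, standard errors and p-values of their comparison, none of which was used. No per-sample column was left unmapped (0). The table named all 24532 genes by symbol or LOC number (8449), no coordinates are given because the only annotation used is of a different assembly, and no sequences were used.

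Counts were analysed with edgeR 4.0.16 in R 4.3.3: filterByExpr (minimum count 10, minimum total 15), TMM, the quasi-likelihood test without covariates, Benjamini-Yekutieli adjustment over all genes tested, and calls at an adjusted p of at most 0.05 with an absolute log2FC of at least 1. SE is the log2FC divided by the root of F. The 21 primary tumors were fitted for HGA versus AGASAC, the 8 samples of dogs 1 to 4 for metastases, and the 11 primary AGASAC for sex. Single values are CPM, on the log2 scale with a pseudocount of 1. Correlations used 100000 permutations, and group tests of single genes were exact (SciPy 1.17.1). Counting intervals are 95% exact Poisson intervals of the HGA counts. No pair of samples was a duplicate. The metastasis and primary tumor of a dog share the animal, and their deviations correlated in 4 of 4 dogs (0.43 to 0.73).

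On simulated counts edgeR called 183 of 199 genes changed by a log2FC of 2 for HGA versus AGASAC, 63 of 194 for metastases and 119 of 197 for sex. At a log2FC of 4 it called 199 of 199, 194 of 195 and 196 of 196. The simulated samples were independent, and each gene had the typical spread of genes at its level. These shares need not hold for members that varied more, such as PIGR (SE 1.71) and WFDC2 (SE 1.95) in the fit of metastases.

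The members, the 7 lists, the marker lists and the tests were chosen with earlier results of these data known. From each list the 3 largest rises and falls among the called genes are named, except 1 gene that is counted in its list but not reported here, with other genes of a list named as examples of those not called, and the 3 genes most like PIP, PIGR, LTF and JCHAIN. The alternatives were DESeq2 1.42.0, other scalings, filters, pseudocounts and adjustments, single extraction batches, neutered dogs, dog as a block, and leaving out each sample. Exact tests of single genes and the sum of PIP and LOC102153414 were added after the data had been seen.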

Additional observations from a re-analysis of the deposited data

Results flagged for a closer look

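In 14 sets of values, each a member in a group of 4 to 10 samples, the highest or lowest sample was set against the others by Dixon's ratio, and 2 stood apart. The rate of about 1 in 20 by chance holds for normally distributed values. It does not apply here, where many values were 0 counts and PIP and LOC102153414 entered as separate sets. LTF in HGA 8 was 15.2 CPM (37 counts), and the next HGA had 5.53 CPM. Without HGA 8 the mean of LTF in HGA was 1.27 ± 1.98 CPM (SD, n = 9) in place of 2.66 ± 4.78 CPM (SD, n = 10). JCHAIN was also highest in HGA 8 among the HGA, at 101 CPM. WFDC2 in HGA 4 was 52.9 CPM (86 counts), and the next HGA had 0.904 CPM. Without HGA 4 the mean of WFDC2 in HGA was 0.277 ± 0.352 CPM (SD, n = 9). HGA 4 also had the highest sum of neutrophil markers among the HGA, 124 CPM, the highest sum of plasma cell markers, 37.5 CPM, and the highest SLPI, 349 CPM, while its JCHAIN, 4.92 CPM, was the lowest. That plasma cell sum came almost wholly from PRDM1 and CD38. TNFRSF17, DERL3 and IRF4 were 0 CPM in HGA 4 and MZB1 was 0.615 CPM, and in any HGA POU2AF1 was at most 1.23 CPM and FCRL5 0. The part of other cell types in either sample was not tested.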

How the results depend on the processing

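For HGA versus AGASAC 3032 genes and 28 list genes were called. Requiring 10 counts in every sample gave 1452 and 13, single extraction batches 5, 6 and 8 gave 262, 637 and 338 genes with 4, 13 and 4 list genes, where fewer samples were fitted, and the tumors of the first sample naming series alone gave 17 list genes. Leaving out 1 tumor at a time gave 2828 to 3373 genes and 23 to 29 list genes. PIP, PIGR, LTF, JCHAIN and WFDC2 kept a negative log2FC under every alternative that gave a value, which is a description only, since they were chosen on this contrast.

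Between metastasis and primary tumor 0 genes were called. DESeq2 called 5 and the replicate block for dog 1, and leaving out 1 sample called 0 throughout. The block changed no call of a member. Between sexes 1 gene was called, against 0 with 10 counts in every sample, 13 with DESeq2, 3 with Benjamini-Hochberg adjustment, 4 in neutered dogs and 1 to 4 without 1 tumor (4 without AGASAC 8). The log2FC of PIP was −1.34 to −0.90 without 1 tumor, while PIGR, uncalled throughout, changed direction in neutered dogs (−1.55). These causes were not tested. The numbers of HGA and AGASAC are only names (correlations of −0.05 to 0.04 in 10 pairs), so no paired fit was used as a result there.

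Depth limited PIP and PIGR in HGA, where the ratio to AGASAC rests on 7 and 2 counts, and LCN2, which had at most 23 counts in any sample.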

Other observations

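LALBA, LPO, FOXA1 and DEFB1 belonged to the lists but were left untested between HGA and primary AGASAC after filtering. Their values were looked up after the data had been seen. LALBA, the alpha-lactalbumin of milk, was 3764 CPM in HGA 10 and 0 to 20.3 CPM in the other 9 HGA, and 0.0903 ± 0.155 CPM in primary AGASAC (SD, n = 11). HGA 10 had 0 counts of PIP. LPO, the lactoperoxidase of secretions, was 27.1 ± 35.2 CPM in primary AGASAC (SD, n = 11), from 0 to 104 CPM, and had at most 2 counts in any HGA. FOXA1, a pioneer transcription factor of glandular epithelium, was 2.67 to 56.2 CPM in primary AGASAC (14.1 ± 16.0 CPM, SD, n = 11) and had at most 2 counts in any HGA. DEFB1, a beta-defensin, had 0 counts in all 11 primary AGASAC and a mean of 23.7 ± 31.4 CPM in HGA (SD, n = 10).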
